A study of Mus musculus with 6 samples.

Results

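Insulin-like growth factors are held outside cells by a family of secreted binding proteins, which carry them, keep them from their receptor or release them when cut by proteases. The genes examined here were the 5 binding protein genes Igfbp3, Igfbp4, Igfbp5, Igfbp6 and Igfbp7 and 1 gene for an RNA-binding protein, Igf2bp2. They were chosen by name, and each name matched 1 row, so that 6 of the 54532 genes in the deposited table are described. Igf2bp2 (IMP2) shares only its name with the others: it works inside the cell, where it binds mRNAs, Igf2 mRNA among them, and is counted among the readers of the m6A mark. In skeletal muscle the growth factors act on fibres and on the stem cells between them, while much of the binding protein RNA of the tissue is known to come from fibroblasts and vessels.

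The series compared muscle of control mice with muscle of mice meant to lack Igf2 in their fibres, 3 libraries in each group. All animals had a C57BL/6 background and 2 floxed copies of Igf2 (Igf2f/f), with loxP sites around exon 2. The Igf2 conditional knockouts (Igf2 cKO, Mck-Cre+; Igf2f/f) also carried Cre under the muscle creatine kinase promoter, which drives expression in fibres of striated muscle and not in fibroblasts, vessels, nerves or fat. Controls were Cre-negative littermates (Mck-Cre-; Igf2f/f). The labels name neither the muscle, the age nor the sex, and RNA came from whole tissue, so fewer cells of a type and less RNA per cell cannot be told apart.

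Values of single libraries are given in the order of replicates 1, 2 and 3. Total counts lay between 16184371 and 17905203 per library. The tissue carried all 10 muscle fibre markers, whose summed level was between 88900 and 132800 CPM (counts scaled to the TMM library sizes). Igf2 itself had 60, 43 and 39 counts in the 3 control libraries and 33, 37 and 42 in the 3 knockout libraries, and the groups overlapped. The log2 fold change of Igf2 was -0.31 ± 0.25 (SE, edgeR adjusted p = 0.751). Since the count covers all exons, exon 2 included, and all cells of the tissue, it is no check of the genotypes.

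The 6 genes lie on 5 chromosomes of the mouse build GRCm38. Igfbp3 is at chr11:7206086-7213923 on the minus strand and Igfbp4 at chr11:99041244-99054392 on the plus strand. Igfbp5 is at chr1:72857932-72874884 on the minus strand, Igfbp6 at chr15:102144362-102149511 on the plus strand, and Igfbp7 at chr5:77349240-77408041 on the minus strand. Igf2bp2 covers the longest stretch, chr16:22059009-22163299 on the minus strand. The coding part of the longest coding transcript is short in the binding protein genes, from 714 bases in Igfbp6 to 939 in Igfbp7, and the rest of the exons varies far more, from 261 non-coding bases in Igfbp7 to 5193 in Igfbp5. Igfbp7 overlaps Polr2b, on the opposite strand, which had between 975 and 1220 counts, and with no strand setting given in the sources used here reads from the shared stretch cannot be assigned to either gene.

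Promoter letters are shown for the binding protein genes that hold a TATA-like motif near the start, with Igf2bp2 beside them as the gene with the lowest level. The sequences are from RefSeq (GRCm38.p6), run 5′ to 3′ on the gene's own strand from 60 bases before the RefSeq start to 20 bases into the transcript, and have the motif in capitals. All 6 genes had an entry.
Igfbp3, chr11:7213904-7213983, minus strand: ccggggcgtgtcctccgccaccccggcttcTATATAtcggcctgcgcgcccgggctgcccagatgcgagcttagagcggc
Igfbp4, chr11:99041184-99041263, plus strand: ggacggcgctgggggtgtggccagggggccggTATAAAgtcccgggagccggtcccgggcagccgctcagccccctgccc
Igfbp5, chr1:72874846-72874925, minus strand: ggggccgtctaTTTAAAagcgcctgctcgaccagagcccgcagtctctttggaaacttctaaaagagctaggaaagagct
Igf2bp2, chr16:22163280-22163359, minus strand: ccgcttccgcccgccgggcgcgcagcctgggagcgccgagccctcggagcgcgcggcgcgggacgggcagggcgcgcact

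The motifs searched were TATANA and TTTAAA, beginning between 60 and 15 bases before the start. On the gene's strand TATANA was found in 4.52% and TTTAAA in 2.49% of 32851 RefSeq promoters. On the opposite strand of the same stretch the share of TATANA was 3.56%. TTTAAA reads the same on both strands, so its share there, 2.49%, was bound to be the same. TATATA, the match in Igfbp3, also reads the same on both strands. TATANA began 30 bases before the start in Igfbp3 and 28 bases before it in Igfbp4. TTTAAA began 49 bases before the RefSeq start of Igfbp5, which is 30 bases before the start listed in the deposited table. Igfbp6, Igfbp7 and Igf2bp2 held neither motif there, and the RefSeq start of Igfbp6 lies 176 bases from the listed start. Over the 300 bases from 250 before to 50 after the start, the Igf2bp2 promoter had 76.7% G and C and 47 CpG pairs, against medians of 52.7% and 7 over all promoters. Igfbp7 (73.3% and 33), Igfbp3 (71.7% and 37) and Igfbp4 (71.3% and 27) were also far above these medians, while Igfbp5 (56.3% and 10) and Igfbp6 (49.7% and 8) were near them. A match is a description of the letters and says nothing of the use of a site.

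Compared per length, the binding protein genes were strongly expressed in muscle and Igf2bp2 was weakly expressed. The authors' FPKM, a count scaled for library size and for the gene length in the table, gave the order Igfbp7, Igfbp6, Igfbp5, Igfbp4, Igfbp3 and Igf2bp2, with means over the 6 libraries of 292.7 ± 32.2, 138 ± 24.4, 126 ± 29.3, 48.0 ± 6.21, 31.6 ± 6.36 and 0.426 ± 0.0572 FPKM (SD, n = 6). Igfbp7, a matrix protein of vessels with low affinity for the growth factors, stood apart from the next gene in every library, 2.12 times its mean. Igfbp6, which prefers IGF2 to IGF1, and Igfbp5, a matrix-bound form induced as myoblasts differentiate, were neighbours whose ranges overlapped, 101 to 160 and 88.4 to 168 FPKM. Igfbp6 was above Igfbp5 in 5 of 6 libraries. Igfbp4 was above Igfbp3 in 6 of 6 libraries, although their ranges over all libraries, 38.7 to 56.0 and 22.4 to 42.2 FPKM, overlapped.

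**Figure D1:**
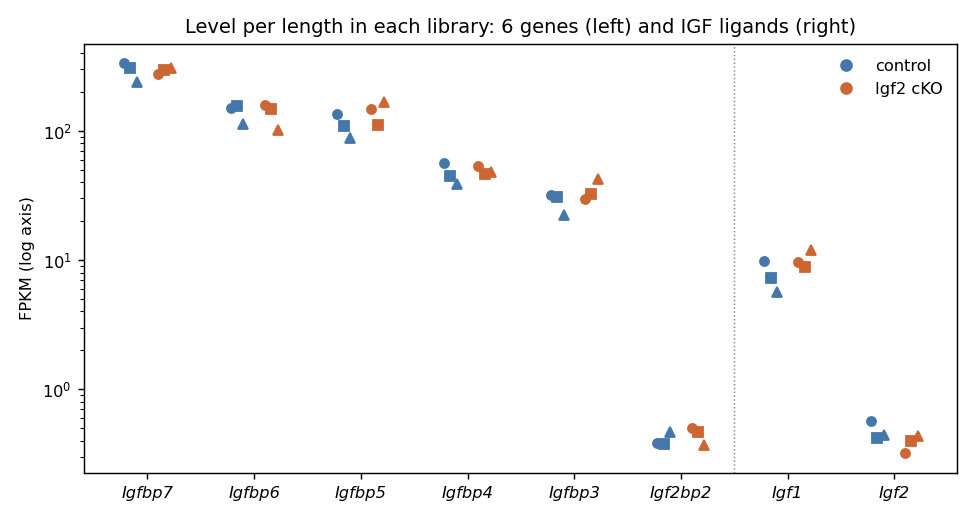
Authors' FPKM (log axis) of the 6 genes, ordered by mean, and of the ligand genes Igf1 and Igf2, in each of 3 control and 3 Igf2 cKO libraries (circle, square and triangle for replicates 1, 2 and 3). The binding protein genes lie between 22.4 and 333 FPKM, and Igf2bp2 lies at 0.500 or below, in the range of Igf2.

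The RNA of the 5 binding protein genes far exceeded that of the ligands. Their summed FPKM was 705, 646 and 502 in the 3 control libraries and 667, 634 and 666 in the 3 knockout libraries. Igf1 was at 9.77, 7.22 and 5.61 FPKM in controls and at 9.62, 8.84 and 11.9 in Igf2 cKO muscle, and Igf2 was between 0.319 and 0.563 FPKM in all 6 libraries. The ratio of binding protein to ligand FPKM (Igf1 plus Igf2) was 68.2, 84.5 and 82.9 in the 3 control libraries. In the 3 knockout libraries it was 67.1, 68.7 and 53.8, and Igf2 cKO replicate 2 lay just above the lowest control. Igfbp7 made up between 41.2% and 47.6% of the binding protein sum in every library. The share of Igfbp5 ran from 16.8% to 25.2%, and that of Igfbp6 from 15.2% to 24.0%, with the highest Igfbp5 share and the lowest Igfbp6 share both in Igf2 cKO replicate 3.

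None of the 6 genes passed the test between genotypes, and for each the 3 libraries of the groups overlapped. All 6 passed the low-count filter. In the same fit 37 of 14867 genes (0.249%) had an adjusted p under 0.05 by edgeR, and in 15.5% of all tested genes the groups did not overlap. At an unadjusted p under 0.05, a level passed by 9.93% of all tested genes, 0 of the 6 were called by edgeR with all 6 libraries and the low-count filter, although Igfbp5 passed it with no filter or with either control replicate 1 or Igf2 cKO replicate 2 left out. With DESeq2 and limma-voom 0 of the 6 passed an adjusted p of 0.05. The median log2 fold change of the 6 genes was 0.11, beside 0.0038 over all tested genes, and 4 of them lay above 0.

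Igfbp5 and Igfbp3 had the largest estimates among the 6. Igfbp5, the most abundant of them by counts, was at 814, 657 and 534 CPM in the 3 control libraries and at 902, 667 and 1007 CPM in the 3 knockout libraries. Control replicate 3 was lowest and Igf2 cKO replicate 3 highest, and Igf2 cKO replicate 2 lay within the control range. The means were 668 ± 140 and 858 ± 174 CPM (SD, n = 3 each), and the log2 fold change was 0.36 ± 0.20 (SE, edgeR adjusted p = 0.616), a 1.28-fold difference with a 95% interval from 0.932 to 1.77-fold.

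Igfbp3, the main carrier of the growth factors in blood, showed the same extremes. It was at 100.7, 96.9 and 70.5 CPM in the 3 control libraries and at 94.2, 103 and 132 CPM in the 3 knockout libraries. The means were 89.4 ± 16.5 and 109.7 ± 19.8 CPM (SD, n = 3 each), with a log2 fold change of 0.29 ± 0.17 (SE, edgeR adjusted p = 0.625) and an interval from 0.938 to 1.60-fold. With control replicate 3 and Igf2 cKO replicate 3 both left out, the log2 fold change became -0.01 ± 0.13 for Igfbp3 and 0.09 ± 0.22 for Igfbp5 (SE, 2 libraries per group). These libraries were left out together only after the values had been seen, and since they are the lowest control and the highest knockout of both genes, the estimates had to fall. Leaving out other libraries moved Igfbp5 the other way, to 0.53 (95% interval 0.031 to 1.02, edgeR adjusted p = 0.576) without control replicate 1. With Igf2 cKO replicate 2 removed it was 0.51 (0.107 to 0.923, edgeR adjusted p = 0.357). Both of these intervals exclude 0. Those libraries are the highest control and the lowest knockout of Igfbp5, so these rises were equally fixed by the choice of library.

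**Figure D2:**
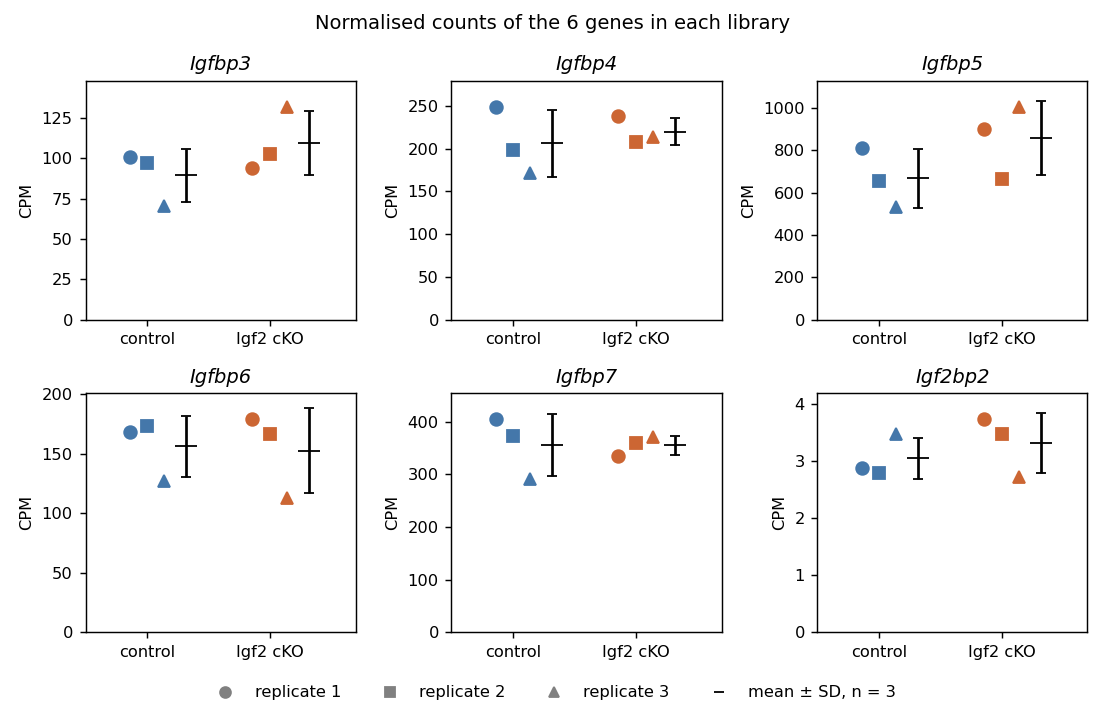
CPM of each of the 6 genes in 3 control and 3 Igf2 cKO libraries, each axis from 0, with the mean and SD of each group in black. Igfbp3 and Igfbp5 are lowest in control replicate 3 and highest in Igf2 cKO replicate 3, and the groups overlap in all 6 panels.

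Igfbp4, Igfbp6 and Igfbp7 had estimates near 0. Igfbp4, an inhibitor of growth factor action that the protease PAPP-A cleaves, was at 249, 198 and 172 CPM in the 3 control libraries. In the 3 knockout libraries it was at 238, 208 and 214 CPM, all within the control range. Its log2 fold change was 0.09 ± 0.15 (SE, edgeR adjusted p = 0.898, 0.844 to 1.34-fold), and without control replicate 3 it was -0.02.

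Igfbp6 was at 168, 174 and 127 CPM in the 3 control libraries and at 179, 166 and 112 CPM in the 3 knockout libraries. Replicate 3 was the lowest library of both groups. The log2 fold change was -0.03 ± 0.19 (SE, edgeR adjusted p = 0.975, 0.723 to 1.32-fold). It was 0.14 when Igf2 cKO replicate 3 was left out and -0.16 when control replicate 3 was.

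Igfbp7 was at 405, 374 and 291 CPM in the 3 control libraries and at 336, 360 and 371 CPM in the 3 knockout libraries. The knockout libraries lay inside the control range and closer together, with an SD of 18.1 CPM against 59.0 in controls. Its log2 fold change was -0.0047 ± 0.14 (SE, edgeR adjusted p = 0.995), with an interval from 0.796 to 1.25-fold, the narrowest among the 6 genes. Changes of a size within these intervals are not excluded by the data.

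Igf2bp2 had few counts. The control libraries held 53, 50 and 53 counts and the knockout libraries 67, 56 and 46, so that the lowest and the highest count were both in the knockout group. In CPM the means were 3.04 ± 0.367 and 3.31 ± 0.527 (SD, n = 3 each). The log2 fold change was 0.12 ± 0.23 (SE, edgeR adjusted p = 0.914), and the interval, 0.759 to 1.56-fold, was wide.

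**Figure D3:**
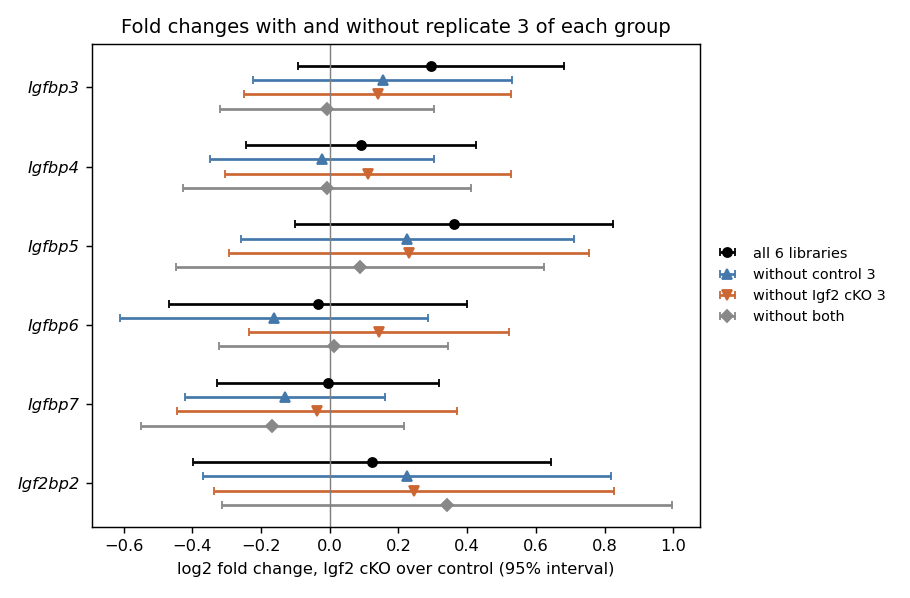
Log2 fold change of each gene (Igf2 cKO over control) with its 95% interval, from all 6 libraries, without control replicate 3, without Igf2 cKO replicate 3 and without both. The intervals of all 6 genes include 0 in these 4 fits. For Igfbp3 and Igfbp5 the libraries left out are the lowest control and the highest knockout, so their estimates could only fall. Leaving out the highest control of Igfbp5 instead could only raise its estimate, which became 0.53.

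The authors' deposited table compares each Igf2 cKO library with the control library of the same number, and calls 95, 72 and 149 genes at its adjusted p under 0.05, which is 0.448%, 0.346% and 0.716% of the genes it lists for replicates 1, 2 and 3. None of the 6 genes is among them in any of the 3 comparisons. Each comparison has a single library on each side, so its p-values do not measure the spread between libraries of a group. In the authors' deposited table the log2 fold change of Igfbp5 was 0.15, 0.02 and 0.92 for replicates 1, 2 and 3, and that of Igfbp3 was -0.09, 0.09 and 0.91. The smallest adjusted p of the 6 genes there, 0.822, belonged to Igfbp5 in the comparison of replicate 3. For Igf2bp2 the authors' deposited table gives 0.38, 0.31 and -0.35.

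Libraries of the same group differed from each other in most of the binding protein genes. The SD of log2 CPM within groups was 0.31 for Igfbp5 and for Igfbp6, 0.27 for Igfbp3, 0.20 for Igfbp4 and 0.18 for Igfbp7. Among the 500 genes nearest in mean CPM, 89.4% varied less than Igfbp6, 88.0% less than Igfbp3 and 83.2% less than Igfbp5, but only 53.0% less than Igfbp7. Igf2bp2, with an SD of 0.20, exceeded 17.8% of genes at its level, where counting error is large. By library, control replicate 3 held the lowest value of 4 of the 6 genes, while Igf2 cKO replicate 3 held the lowest value of Igfbp6 and Igf2bp2 and the highest of Igfbp3 and Igfbp5. The pair whose log2 ratio changed least over the 6 libraries was Igfbp4 and Igfbp7 (SD 0.14), and the pair whose ratio changed most was Igfbp5 and Igfbp6 (SD 0.45).

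Markers of other cells differed between the same libraries. The 7 adipocyte markers summed to 863, 848 and 492 CPM in the 3 control libraries and to 657, 623 and 1525 CPM in the 3 knockout libraries, so that the library with the least was control replicate 3 and that with the most Igf2 cKO replicate 3, as for Igfbp3 and Igfbp5. All 7 lay above 0 in log2 fold change, 0 were called, and none was at 0 counts. The libraries between these extremes did not follow the same order. In Igf2 cKO replicate 2 the adipocyte sum was the second lowest, while Igfbp3, at 103 CPM, was the second highest. From control replicate 1 to Igf2 cKO replicate 1 the adipocyte sum was lower, while Igfbp5 was higher (814 and 902 CPM). The 10 fibroblast and fibro-adipogenic markers summed to 10900, 8648 and 4773 CPM in the 3 control libraries and to 8910, 7105 and 5991 CPM in the 3 knockout libraries. Replicate 3 was lowest in both groups there, as for Igfbp6, and 3 of the 10 markers lay above 0 with 0 called. Over all 6 libraries, however, these markers were lowest in control replicate 3 and highest in control replicate 1. Igfbp6 was lowest in Igf2 cKO replicate 3 (112 CPM) and highest in Igf2 cKO replicate 1 (179 CPM). The summed macrophage, tenocyte and erythroid markers were also lowest in replicate 3 of both groups. The erythroid sum differed between the groups as well, from 449 to 617 CPM in controls and from 313 to 358 CPM in Igf2 cKO muscle. All 5 erythroid markers were lower in Igf2 cKO muscle with groups that did not overlap, against 15.5% of all tested genes. Of these, 0 were called (smallest edgeR adjusted p = 0.1945). The 10 endothelial markers ranged from 1625 to 1727 CPM in controls and from 1173 to 1831 CPM in Igf2 cKO muscle. They were lowest in Igf2 cKO replicate 1, which is also the lowest knockout library for Igfbp7. Over all 6 libraries, however, Igfbp7 was lowest in control replicate 3, at 291 CPM against 336 CPM in Igf2 cKO replicate 1. The endothelial markers summed to 1625 CPM in control replicate 3. None of the fibroblast or endothelial markers was at 0 counts. The part of these cells in the values of the 6 genes was not tested.

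**Figure D4:**
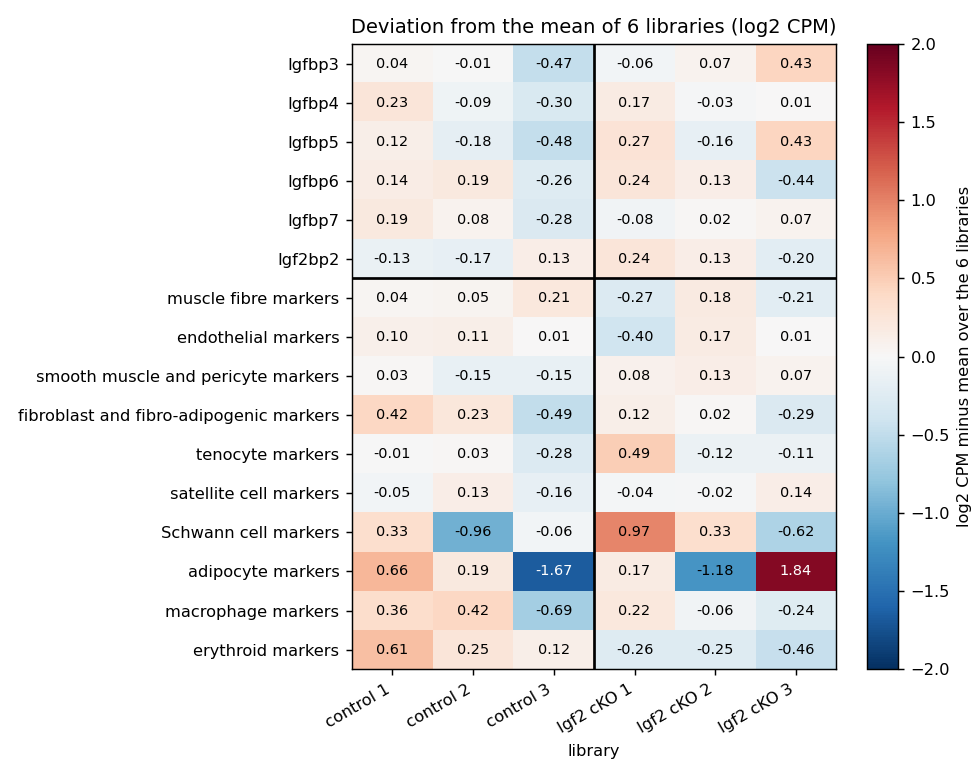
Deviation of each library from the mean of the 6 libraries in log2 CPM, for the 6 genes (above the line) and for the mean of 10 marker lists (below), controls left and Igf2 cKO right of the vertical line. Control replicate 3 is at -0.47 for Igfbp3, -0.48 for Igfbp5 and -1.67 for the adipocyte list, and Igf2 cKO replicate 3 is at 0.43, 0.43 and 1.84. Igf2 cKO replicate 2 is at 0.0719 for Igfbp3, -0.163 for Igfbp5 and -1.185 for the adipocyte list.

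The genes whose levels followed each member most closely were sought among 9063 genes (9064 for Igf2bp2) with a mean of at least 10 CPM, by the SD over the 6 libraries of the log2 ratio to the member. For Igfbp3 they were Por (SD 0.0702) and Pgd (0.0849), against a median of 0.329 over all candidates. For Igfbp5 they were Cavin3 (0.107) and Cpne2 (0.119), against 0.370. Igfbp6 was followed most closely by Pdgfra (0.0694), the receptor gene that marks fibro-adipogenic cells, and then by Akna (0.0763), against 0.329. Sash1 (0.0346) and Slc36a4 (0.0402) were nearest to Igfbp4, and Arf3 (0.0313) and Mxd4 (0.0378) to Igfbp7. Fam193b (0.0644) and Taf1d (0.0656) were nearest to Igf2bp2. These values describe the 6 libraries, and no test was made of them.

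Of the remaining family genes, Igfbp1, Igfbp2, Igfbpl1 and Igf2bp1 had at most 12 counts in a library, while Igfals was expressed. Igfbp1, a liver form, lies 3539 bases from Igfbp3 with no coding gene between them and had 0 counts in all 6 libraries, which allows up to 0.162 to 0.196 CPM at the 3 counts that a count of 0 permits, counting error only. Igfbp2 lies 5457 bases from Igfbp5 and had between 3 and 12 counts, too few to be tested. Igfbpl1 had 2 counts in control replicate 1 and 0 elsewhere. Igfals, which encodes the acid-labile subunit that joins Igfbp3 or Igfbp5 and a ligand in blood, was at 10.9, 11.0 and 12.1 CPM in the 3 control libraries. In the 3 knockout libraries it was at 8.31, 9.16 and 17.1 CPM, again highest in Igf2 cKO replicate 3, with a log2 fold change of 0.02 ± 0.26 (SE, edgeR adjusted p = 0.984). Of the relatives of Igf2bp2, Igf2bp1 had 0 counts in every library. Igf2bp3, a mainly fetal form, had 12, 12 and 11 counts in controls and 17, 16 and 24 in Igf2 cKO muscle, which did not overlap, with a log2 fold change of 0.71 ± 0.34 (SE, edgeR adjusted p = 0.543).

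Among other genes of the pathway, 0 were called by edgeR, against 0.249% of all tested genes. Of 5 ligand and receptor genes, 1 lay above 0, with a list median of -0.09. Igf1 was at 0.42 ± 0.20 (SE, edgeR adjusted p = 0.533) and shared its lowest library, control replicate 3, and its highest, Igf2 cKO replicate 3, with Igfbp3 and Igfbp5. The receptor gene Igf1r was at -0.34 (adjusted p = 0.42) and Igf2r, which clears IGF2, at -0.07 (adjusted p = 0.858). The 14 tested proteases and inhibitors that act on binding proteins had a median of 0.02, with 8 above 0. The matrix protease genes Adamts1 and Mmp14 had the smallest p, at -0.19 and -0.32 (adjusted p = 0.68 and 0.738). Pappa, the protease of Igfbp4, was at 0.43 ± 0.35 (adjusted p = 0.76) from 2.11 CPM in controls.

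The 8 tested IGFBP-related genes, which encode proteins with a domain like that of the binding proteins, had a median of -0.02, with 4 above 0. Ctgf, a matrix-bound signalling protein, was at 59.7, 89.8 and 52.2 CPM in controls and at 136.7, 128 and 81.2 CPM in Igf2 cKO muscle, with a log2 fold change of 0.78 ± 0.24 (SE, edgeR adjusted p = 0.324). Wisp2 had the next smallest p, at 0.59 (adjusted p = 0.424). The 9 surface partners of binding proteins had a median of 0.06. Sdc4, a heparan sulfate proteoglycan of the cell surface, was at 33.8, 40.6 and 39.3 CPM in controls and at 48.7, 69.1 and 58.6 CPM in Igf2 cKO muscle, with no overlap. Its log2 fold change was 0.63 ± 0.14 (SE, edgeR adjusted p = 0.169). With DESeq2 Sdc4 passed (adjusted p = 0.0142), and with no low-count filter in edgeR both Sdc4 (0.00909) and Ctgf (0.0135) passed. Cd93, the endothelial partner of Igfbp7, was at -0.31 (adjusted p = 0.711).

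On the RNA-binding side, Hmga1 was at -0.14 (adjusted p = 0.637), and Hmga2, Lin28a and Lin28b had too few counts to be tested. The 13 writers, erasers and other readers of m6A had a median of -0.02, with 6 above 0 and 5 with groups that did not overlap, against 15.5% of all tested genes, and 0 of them called. Elavl1 (HuR), a stabiliser of mRNAs, was at 0.24 and Hnrnpc at 0.27 (adjusted p = 0.408 and 0.425).

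**Figure D5:**
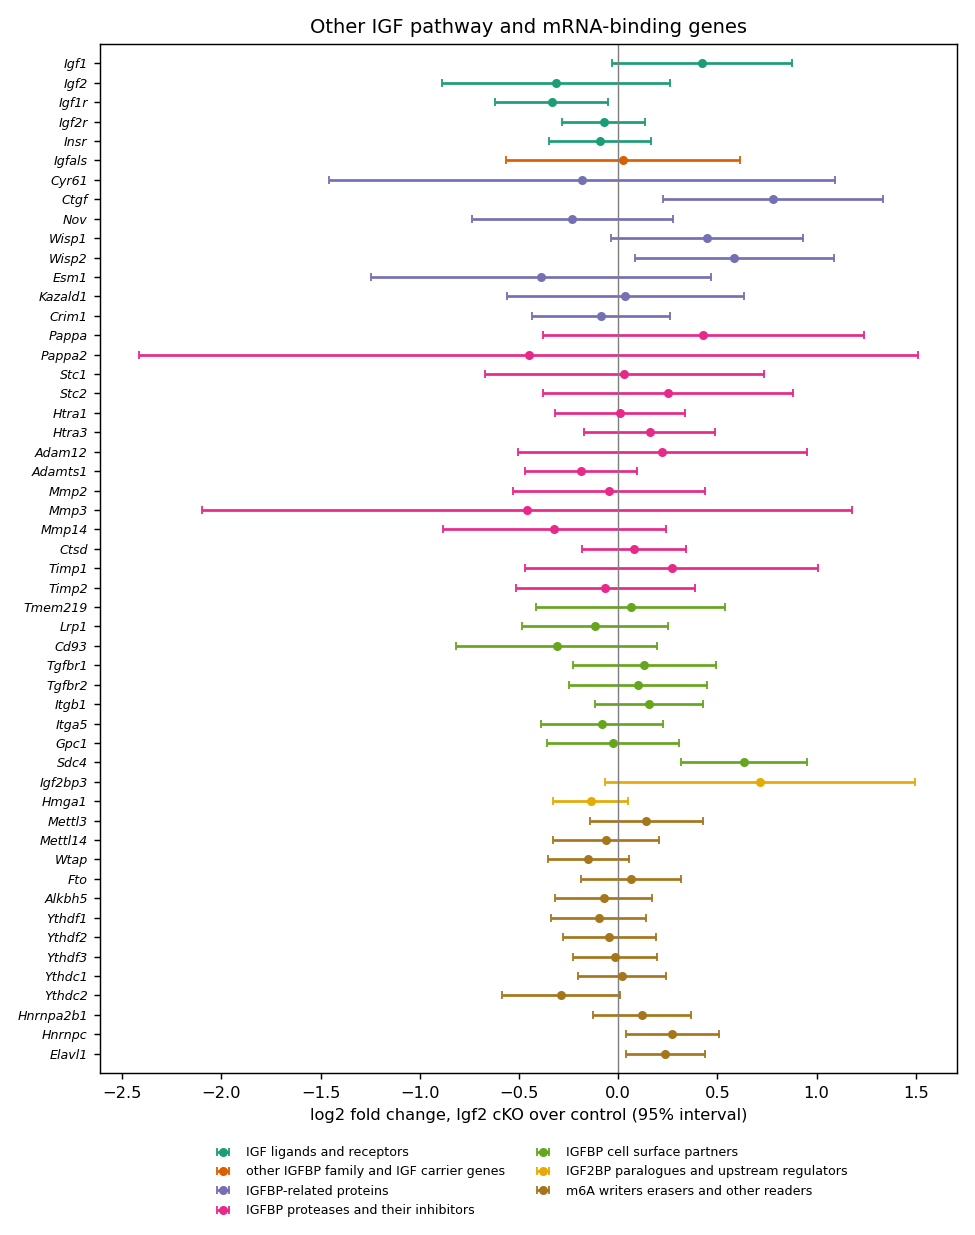
Log2 fold change (Igf2 cKO over control) with 95% interval for every tested gene of the 7 pathway lists, coloured by list. Sdc4 at 0.63 and Ctgf at 0.78 lie farthest from 0 relative to their intervals, and neither passes the adjusted threshold by edgeR.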

How the data were processed

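RNA of 3 control and 3 Igf2 cKO muscle samples was isolated with Trizol and sequenced on an Illumina NovaSeq by a service company, per the labels' protocols. No aligner, counter, strand setting, build or annotation is named (not given in the sources used here). The 1 deposited table has, per the file headers, raw counts and FPKM of every library, and the authors' log2 fold change, p-value and adjusted p-value for single libraries. Another 6 columns of per-sample values match no sample title and were not used. Of 54409 gene identifiers found in GENCODE M21, 98.3% have the same start and end there.

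Counts were tested with edgeR 4.0.16 (R 4.3.3): quasi-likelihood F test, genotype as the only term, TMM, filterByExpr, and Benjamini-Hochberg adjustment over 14867 genes, called at an adjusted p under 0.05. Standard errors come from the F statistic. Log2 CPM used a prior count of 2. The fit was also run on counts simulated from its own dispersions, which cannot check the model against the real spread between these libraries. The labels do not say that each library is a separate animal, so p-values measure the spread between these samples. Alternatives were other scalings and filters, DESeq2 1.42.0, limma-voom (limma 3.58.1), the replicate number as a block, the rule the series states, and leaving libraries out. The 6 genes and all lists were chosen with earlier results of these data known. Besides the 6 genes, the text names the called members of each list or the 2 with the smallest p, family neighbours, the ligands and receptors, and the 2 genes nearest to each member. Genes outside this rule (Pappa, Igfbpl1, Polr2b, Hmga2, Lin28a and Lin28b) were named for their role or position.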

Additional observations from a re-analysis of the deposited data

How the results depend on the processing

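In none of the settings tried did any of the 6 genes pass an adjusted p of 0.05, and the lowest adjusted p was 0.357 (Igfbp5 without Igf2 cKO replicate 2). Unadjusted, Igfbp5 passed 0.05 in that setting, without control replicate 1 and with no low-count filter. Igf2bp2 and Igfbp5 kept their direction in all 16 alternatives. The rule the series states is among these, and it uses the main estimates, so it could not change a direction. Library sizes without mitochondrial DNA genes also left the estimates as they were, at 0.123 for Igf2bp2 and 0.3616 for Igfbp5. With a library left out, the log2 fold change ran from 0.14 to 0.39 for Igfbp3, from 0.23 to 0.53 for Igfbp5, from 0.025 to 0.24 for Igf2bp2, from -0.023 to 0.25 for Igfbp4, from -0.17 to 0.14 for Igfbp6 and from -0.13 to 0.097 for Igfbp7. With replicate 3 of each group left out, a choice made after the data had been seen, Igfbp3 was at -0.0076, Igfbp4 at -0.0083 and Igfbp6 at 0.012, and 1 gene of all was called. Igfbp7, at -0.0047 with all libraries, turned to 0.014 with limma-voom. The 37 calls became 282 with no low-count filter, 203 with DESeq2 and 235 by the rule the series states, and between 8 and 68 with a library left out (the fewest without control replicate 1, the most without Igf2 cKO replicate 2). Of the pathway genes, counted under each setting after the data had been seen, 2 were called with no filter (Sdc4 and Ctgf) and 1 with DESeq2 (Sdc4). The cause of these changes was not tested.

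With the replicate number as a block, 35 genes and 0 of the 6 were called, and Igfbp7 was at 0.0076. The labels do not say whether the numbers pair the samples. Deviations of same-numbered libraries from their group means correlated at 0.163, 0.0581 and -0.0425 for replicates 1, 2 and 3. The value for replicate 1 was the highest of all pairings. Control replicates 2 and 3 both correlated best with Igf2 cKO replicate 2, at 0.0581 and 0.122. With so few libraries, weak correlations like these cannot decide whether the samples are paired. RPKM from TMM-scaled counts gave the same order of levels per length. It scales all genes of a library alike with the same gene lengths, so the order within a library could not change. Other gene lengths were not tried. For Igf2bp2 the listed length is 7402 bases, against 3899 exon bases in its longest coding transcript. At about 50 counts, the depth limits what can be seen for Igf2bp2.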
